A study of Mus musculus with 12 samples.

Results

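Triglyceride, the bulk lipid of milk, is assembled in the secretory cells of the mammary gland, and the expression of 10 genes named for that assembly and for lipid droplets was examined in lactating mice with and without butyrophilin 1a1 (Btn1a1). The genes were chosen by name, with earlier results of these data known. Of the 10 names, 9 were found among the 11834 genes of the deposited table: Gpam, Agpat1, Lpin1, Dgat1, Dgat2, Pnpla2, Pnpla3, Fabp3 and Plin3. The name Agpat6 was not found, and the RefSeq gene table gives it as a synonym of Gpat4, which the table holds. Gpat4 is therefore described beside the 9 genes but not counted among them. RNA came from the mammary gland of 12 C57BL/6 mice in lactation 1, of which 5 were wild type (WT) and 7 carried the genotype Btn1a1-/- (KO). Each mouse gave 1 library. The gland was taken on day 10 in 3 WT and 5 KO mice, on day 9 in WT replicate 2, on day 11 in WT replicate 3, on day 8 in KO replicate 3 and on day 11 in KO replicate 4. The mutant mice were bred from heterozygous pairs, apart from the wild-type colony, and the labels name 2 diets without saying which mouse had which, so genotype, colony and diet cannot be told apart. The labels name no tissue-specific deletion, and whole glands were sampled, so fewer cells of a type and less RNA per cell cannot be told apart.

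Milk triglyceride is built by a chain of enzymes on the membrane of the endoplasmic reticulum. Glycerol 3-phosphate receives a first fatty acid from a GPAT enzyme (Gpam in mitochondria, Gpat4 in the endoplasmic reticulum) and a second from an AGPAT enzyme, which gives phosphatidate. A lipin removes the phosphate, and a DGAT enzyme adds the last fatty acid. The product collects in droplets coated by perilipins, which the milk-secreting cell releases wrapped in plasma membrane, and Btn1a1 is a protein of that wrapping. Lipases such as Pnpla2 (adipose triglyceride lipase) break droplets down again.

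Values are log2 CPM, the read count of a gene scaled to a common library total and put on a log2 scale. From the values they were also quantile-normalized, so that libraries share nearly the same set of values. That limits how far the most abundant genes can differ. Read totals are not in the table, and steps between tied low values put the depth at roughly 17.1 to 30.4 M reads (megareads) in WT and 23.2 to 34.7 M in KO. Btn1a1 checked the labels: it lay between 11.03 and 11.23 log2 CPM in WT and between 5.10 and 6.02 in KO. The secretory tissue named in the labels was evident, with the milk protein gene Csn2 at 17.27 log2 CPM, the top value of the normalized scale, in all 12 libraries. Over all genes the median log2 change was -0.03.

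The comparison of KO with WT asked which steps of triglyceride assembly differ in transcript level when Btn1a1 is missing. Of the 9 genes, 3 fell in KO, 0 rose and 6 did not pass the test. The 3 were Gpam and Agpat1, acyltransferases of the early steps, and Pnpla3, a lipid droplet protein with lipase and acyltransferase activity in vitro. By limma with Benjamini-Hochberg adjustment over all genes, at an adjusted p under 0.05, 4.52% of all genes were lower and 4.84% higher in KO (9.36% in all), against 33.3% and 0 of 9 here. Because the 9 genes were chosen with earlier results of these data known, the difference in share is a description and not a test. Without adjustment 5 of the 9 were lower at a p under 0.05, against 14.4% of all genes (26.6% in both directions), and 0 were higher. The median log2 change of the 9 genes was -0.25, and 8 of them lay below 0, as did 55.4% of all genes. The count of calls varied with the libraries used. Without WT replicate 2 only Agpat1 was called. With day 10 libraries alone 0 of the 9 were called. At an unadjusted limma p under 0.05, 3 of the 9 were lower there, while 2500 of all 11834 genes passed, both directions together. The log2 changes in these 3 WT and 5 KO libraries were -0.40 for Gpam, -0.43 for Agpat1 and -1.31 for Pnpla3.

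**Figure D1:**
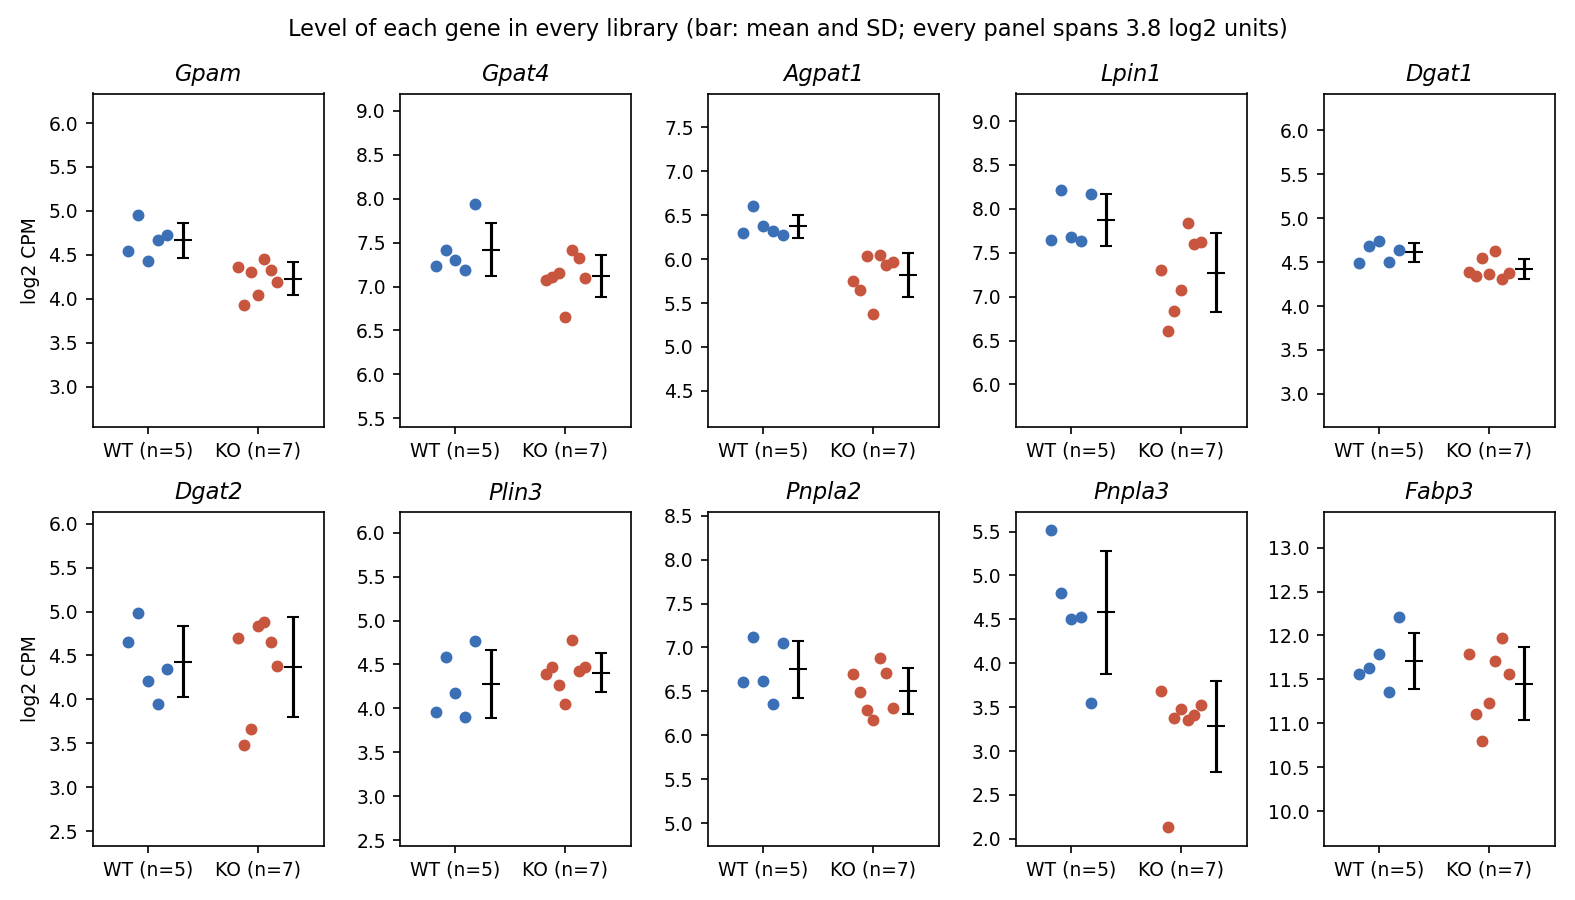
Level of each gene in every library. The vertical axis is log2 CPM, every panel spans the same range, points are libraries and bars give the mean and SD of 5 WT and 7 KO libraries. For Agpat1 all KO points lie below all WT points, while Dgat2 and Plin3 overlap widely.

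Gpam, the mitochondrial enzyme that adds the first fatty acid (chr19:55067268-55127238, mm10), was at 4.54, 4.95, 4.43, 4.67 and 4.73 log2 CPM in WT replicates 1 to 5. In KO it ran from 3.92 in replicate 2 over a median of 4.31 to 4.46 in replicate 5. Of the 7 KO libraries 6 lay below all WT libraries, and KO replicate 5 lay just above WT replicate 3. Gpam fell by 0.44 on the log2 scale (SE 0.11, limma adjusted p = 0.0204), to 74.0% of the WT level. Its call ended without WT replicate 2 (adjusted p = 0.0559).

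Gpat4, the GPAT enzyme of the endoplasmic reticulum that mouse milk fat formation is known to need (chr8:23171265-23208346), was at 7.24, 7.42, 7.31, 7.19 and 7.94 log2 CPM in WT. In KO it ran from 6.66 in replicate 4 over a median of 7.11 to 7.42 in replicate 5. WT replicate 5 was high and KO replicate 4 low, and the groups overlapped in 2 KO libraries. Its log2 change of -0.30 (SE 0.14, limma adjusted p = 0.183) did not pass. Per kilobase of exon, Gpam made up 13.1% ± 2.28 of the Gpam and Gpat4 signal in WT (SD, n = 5) and 12.0% ± 1.37 in KO (SD, n = 7), and no KO share lay outside the WT range.

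Agpat1, which adds the second fatty acid to make phosphatidate (chr17:34604262-34613449), stood at 6.29, 6.60, 6.38, 6.32 and 6.28 log2 CPM in WT. In KO the lowest value was 5.37 in replicate 4, the median 5.94 and the highest 6.05 in replicate 5. It was the only one of the 9 genes for which every KO library lay below every WT library, which held for 2.74% of all genes. Agpat1 fell by 0.55 on the log2 scale (SE 0.11, limma adjusted p = 0.00919), to 68.2% of the WT level, or from 82.9 to 56.5 CPM as geometric means. Leaving out any 1 library kept the call, with adjusted p from 0.00688 to 0.0295.

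Agpat4, an isoenzyme of low abundance in this gland, rose by 1.65 on the log2 scale (SE 0.34, limma adjusted p = 0.0109). Its WT level was 0.23 ± 0.23 log2 CPM (SD, n = 5) and its KO level 1.89 ± 0.82 (SD, n = 7). Each of the 7 KO values exceeded each WT value, as for 2.69% of all genes. For Agpat2, the form that adipose tissue depends on, the log2 change was -0.37 (SE 0.26, adjusted p = 0.394). Per kilobase of exon, Agpat1 gave 67.1% ± 5.89 of the summed signal of Agpat1 to Agpat5 in WT and 61.1% ± 6.88 in KO. Agpat4 gave 1.06% ± 0.14 in WT and 5.17% ± 2.80 in KO, from 1.79% in KO replicate 3 to 8.23% in KO replicate 1. The summed signal of the 5 genes was 41.8 ± 7.36 CPM per kilobase in WT and 31.2 ± 4.08 in KO, and each KO sum lay below each WT sum, by little between the highest KO value of 36.29 and the lowest WT value of 36.31.

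Lpin1, the phosphatase that turns phosphatidate into diacylglycerol (chr12:16535669-16610966), was at 7.64, 8.22, 7.68, 7.64 and 8.17 log2 CPM in WT. In KO it ran from 6.61 in replicate 2 over a median of 7.31 to 7.84 in replicate 5, and 6 of 7 KO libraries lay below all WT libraries. KO replicates 2, 3 and 4 were low, and KO replicates 5, 6 and 7 lay close to the lower WT values. The log2 change was -0.60 (SE 0.21, limma adjusted p = 0.0871), which did not pass. It passed without KO replicate 5 (adjusted p = 0.0390). Lpin1 supplied 95.8% ± 0.38 of the lipin signal per kilobase in WT (SD, n = 5) and 94.2% ± 1.41 in KO (SD, n = 7). Neither Lpin2 (log2 change -0.20, SE 0.16) nor Lpin3 (-0.08, SE 0.14) passed, at adjusted p of 0.475 and 0.746.

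Dgat1 and Dgat2 encode unrelated enzymes for the same last step. Dgat1 (chr15:76502015-76511953) was at 4.50, 4.68, 4.74, 4.50 and 4.64 log2 CPM in WT, and in KO ran from 4.31 over a median of 4.37 to 4.63. Its SDs of 0.11 in WT and 0.12 in KO were the smallest of the 10 genes, and 5 of 7 KO libraries lay below all WT libraries. Its log2 change was -0.19 (SE 0.07, limma adjusted p = 0.117).

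Dgat2 (chr7:99153658-99182719) was at 4.66, 4.99, 4.21, 3.94 and 4.34 log2 CPM in WT, and in KO ran from 3.48 in replicate 2 over a median of 4.65 to 4.88 in replicate 5. KO replicates 2 and 3 lay below all WT libraries, and the other 5 KO libraries lay within the WT range. The log2 change was -0.06 (SE 0.27, limma adjusted p = 0.917), with a 95% confidence interval from -0.65 to 0.53. The sign turned without WT replicate 2 (0.08), KO replicate 2 (0.09) or KO replicate 3 (0.06), and with day 10 libraries alone (0.10). Of the Dgat1 and Dgat2 signal per kilobase, Dgat1 gave 53.3% ± 6.79 in WT and 51.0% ± 9.76 in KO, with the highest shares of the 12 libraries in KO replicates 2 and 3.

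**Figure D2:**
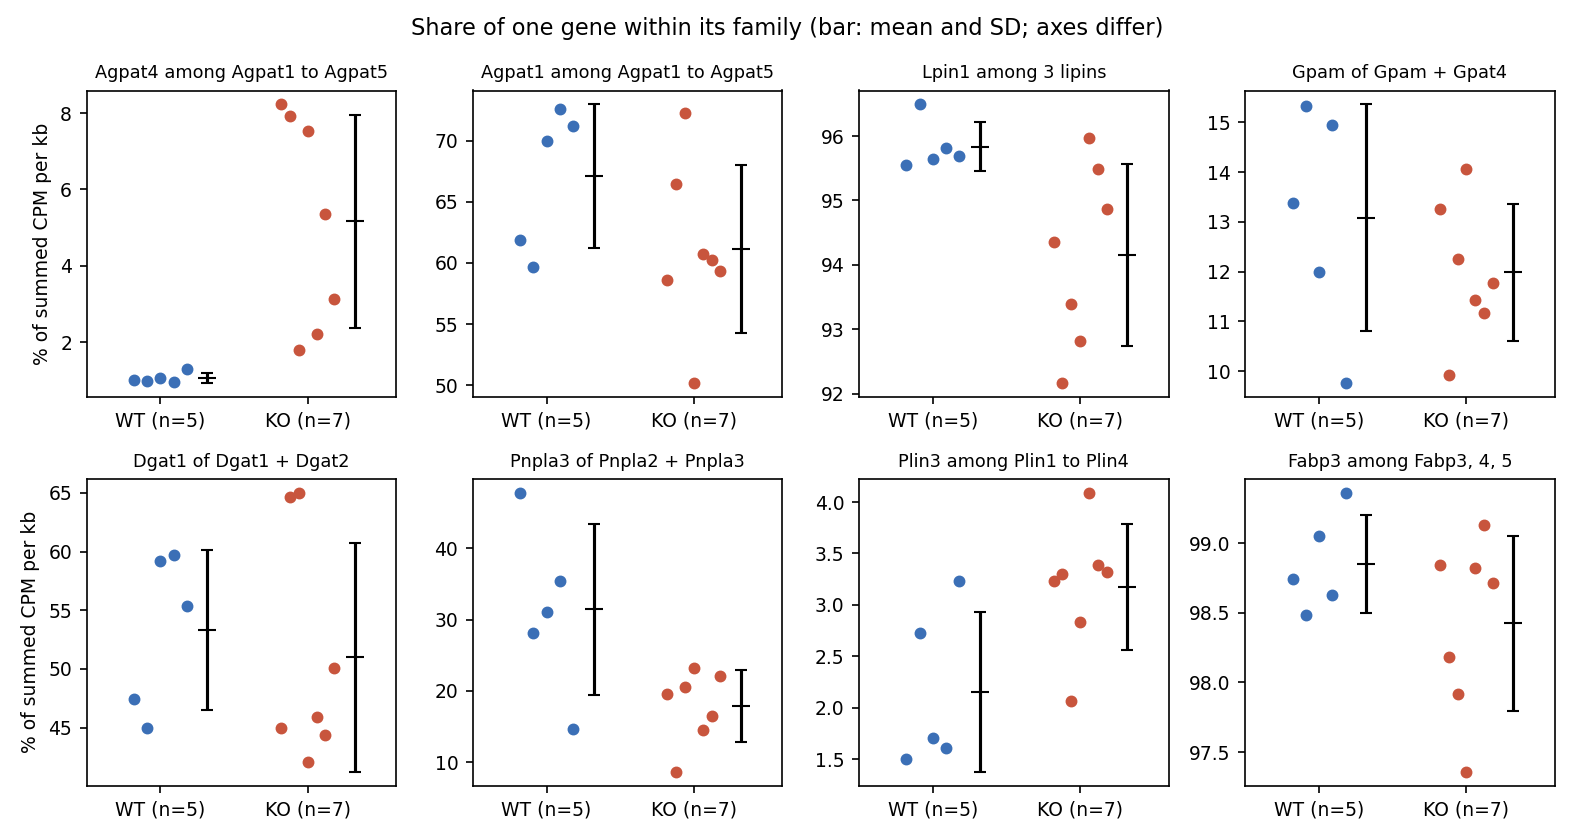
Share of 1 gene in the summed signal of its family, in percent of CPM per kilobase of exon, by library. Points are libraries, bars give the mean and SD, and axes differ. The Agpat4 share has a mean of 1.06% in WT and lies between 1.79% and 8.23% in KO, and Pnpla3 lies lower in KO than in 4 of 5 WT libraries.

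Pnpla3 (chr15:84167837-84187236), a droplet protein whose transcript is known in liver to follow feeding and the lipogenic factor Srebf1, was at 5.51, 4.80, 4.51, 4.53 and 3.55 log2 CPM in WT. In KO it ran from 2.13 in replicate 2 over a median of 3.41 to 3.69 in replicate 1. WT replicate 5 lay inside the KO range, KO replicate 2 lay far below the other KO libraries, and 4 of 5 WT libraries lay above all KO libraries. Pnpla3 fell by 1.30 on the log2 scale (SE 0.32, limma adjusted p = 0.0297), to 40.7% of the WT level. Removing 1 WT library ended the call for replicate 1 (adjusted p = 0.0636), 2 (0.0682), 3 (0.0585) and 4 (0.0545), and it held without KO replicate 2 (log2 change -1.11, adjusted p = 0.0318).

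Pnpla2, the main lipase that starts triglyceride breakdown (chr7:141455198-141460743), was at 6.61, 7.12, 6.62, 6.36 and 7.05 log2 CPM in WT, and in KO ran from 6.17 in replicate 4 over a median of 6.49 to 6.88 in replicate 5. Of the 7 KO libraries 3 lay below all WT libraries. The log2 change was -0.25 (SE 0.15, limma adjusted p = 0.314, 95% confidence interval -0.56 to 0.07). Pnpla3 gave 31.4% ± 12.0 of the Pnpla2 and Pnpla3 signal per kilobase in WT (SD, n = 5), between 14.7% and 47.7%. In KO it gave 17.9% ± 5.07 (SD, n = 7), between 8.69% and 23.3%.

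Plin3, a perilipin that moves between cytosol and new droplets (chr17:56277476-56292873), was at 3.96, 4.59, 4.17, 3.90 and 4.77 log2 CPM in WT, and in KO ran from 4.05 in replicate 4 over a median of 4.42 to 4.78 in replicate 5. It was the 1 gene of the 9 with a log2 change above 0, at 0.13 (SE 0.15, limma adjusted p = 0.626), and the groups overlapped in 6 of 7 KO libraries. Plin2, the main droplet coat of the lactating gland, which is not among the 9, fell by 0.51 (SE 0.12, limma adjusted p = 0.0167; 0.0505 without WT replicate 1). Plin2 gave 95.4% ± 1.66 of the perilipin signal per kilobase in WT and 93.0% ± 1.45 in KO, and Plin3 gave 2.16% ± 0.78 and 3.18% ± 0.61.

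Fabp3, the fatty acid carrier protein of milk-secreting and muscle cells (chr4:130308595-130315463), was at 11.56, 11.62, 11.79, 11.36 and 12.21 log2 CPM in WT, and in KO ran from 10.80 in replicate 3 over a median of 11.56 to 11.97 in replicate 6. KO replicates 2, 3 and 4 lay below all WT libraries, and the other 4 KO libraries lay within the WT range. The log2 change was -0.25 (SE 0.20, limma adjusted p = 0.440, 95% confidence interval -0.68 to 0.17). Fabp3 gave 98.9% ± 0.35 of the Fabp3, Fabp4 and Fabp5 signal per kilobase in WT and 98.4% ± 0.63 in KO. Markers of skeletal muscle, a tissue that also makes Fabp3, had summed levels of 82.7 to 568 CPM in WT and 120 to 1954 CPM in KO. Fabp3 alone was at 3342 CPM in WT and 2801 CPM in KO as geometric means. These levels do not bound the part of the Fabp3 signal that comes from muscle, which was not tested.

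Ordered by level per kilobase of exon in WT, Fabp3 came first at 11.99 log2 CPM per kilobase, 6.83 above Pnpla2 at 5.16. Agpat1 (4.79), Gpat4 (4.68), Lpin1 (4.60) and Pnpla3 (3.95) followed. Neighbours among these 4 did not differ by more than the larger of their SDs. Dgat1 (3.00) and Dgat2 (2.80) did not differ from each other in that sense either, and Plin3 (2.36) and Gpam (1.93) came last. In KO the ends of this order were the same, and Pnpla3 moved from the 6th to the 8th place, at 2.65, within the SD of both Dgat2 (2.75) and Plin3 (2.49).

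Libraries differed in how many of the 9 genes were low. The median over the 9 genes of the difference from the WT mean was -0.73 in KO replicate 2, -0.58 in KO replicate 4 and -0.47 in KO replicate 3. It was -0.00058 in KO replicate 5, between -0.22 and -0.27 in KO replicates 1, 6 and 7, and between -0.23 and 0.29 in the WT libraries. KO replicate 2 held the lowest value of the 12 libraries for 4 of the 9 genes, and WT replicate 2 the highest for 5. KO replicate 5 was the highest KO library for 7 of the 9 genes. Even so, in KO replicate 5 the difference from the WT mean was -1.22 for Pnpla3 and -0.33 for Agpat1. Of these, KO replicate 3 came from day 8, KO replicate 4 from day 11 and KO replicate 2 from day 10. With lactation day as a covariate the same 3 genes were called (adjusted p of 0.0111 for Gpam, 0.00392 for Agpat1 and 0.0375 for Pnpla3).

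**Figure D3:**
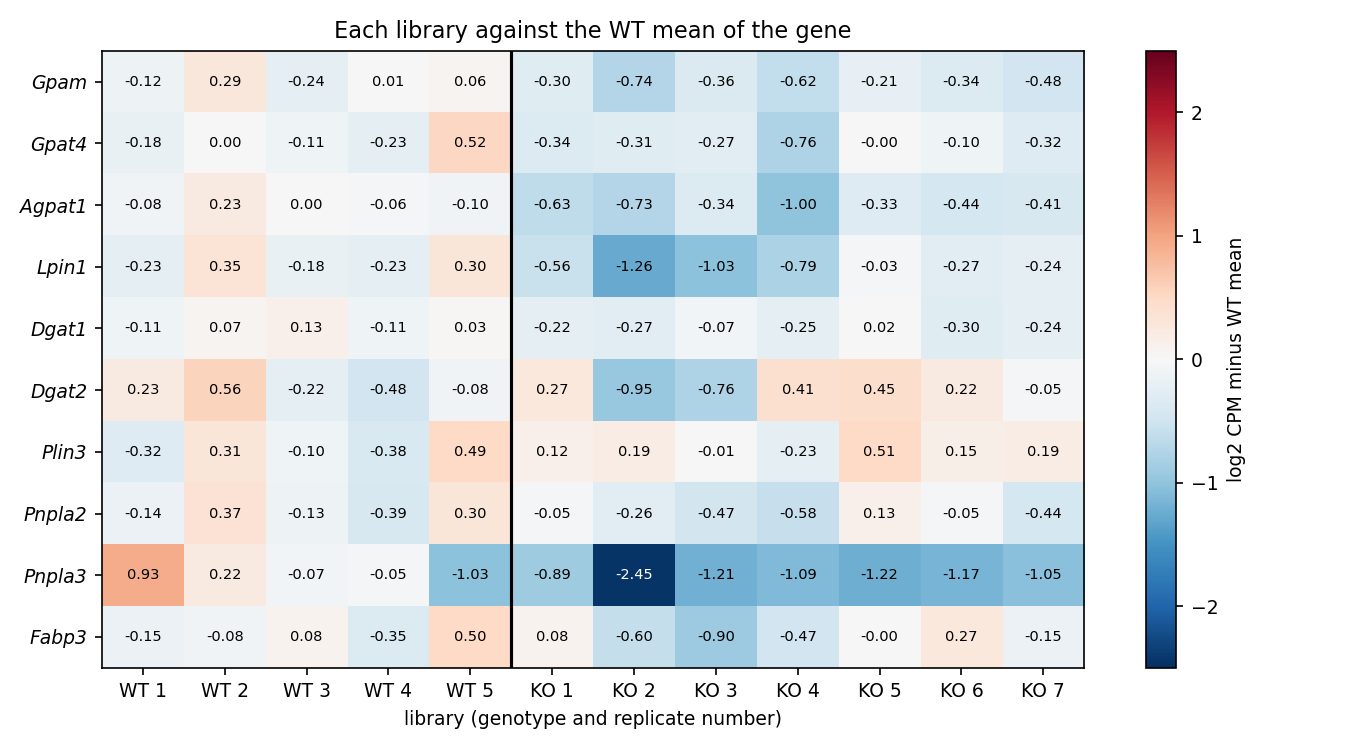
Difference of each library from the WT mean of the gene, in log2 CPM, for 9 genes and Gpat4 (rows) in 5 WT and 7 KO libraries (columns); blue is below and red above the WT mean. KO replicate 2 has the deepest value, -2.45 for Pnpla3, and Gpam, Agpat1 and Pnpla3 lie below the WT mean in all 7 KO libraries.

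For Gpam, Agpat1 and Pnpla3, the 3 genes called lower, 1 promoter window each is shown, 5′ to 3′. It holds the 250 bases before the most upstream start that the RefSeq promoter table (GRCm38.p6) gives. Whether the 3 genes share any control was not tested. Capitals mark matches, on either strand, to the CCAAT box (CCAAT), the GC box (GGGCGG) or the gamma-activated site that Stat factors bind (TTCNNNGAA).
Gpam, chr19:55127239-55127488, minus strand: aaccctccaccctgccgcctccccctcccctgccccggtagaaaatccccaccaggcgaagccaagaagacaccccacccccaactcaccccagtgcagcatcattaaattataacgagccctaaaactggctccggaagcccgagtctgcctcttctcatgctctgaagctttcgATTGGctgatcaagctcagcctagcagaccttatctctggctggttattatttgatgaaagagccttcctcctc
Agpat1, chr17:34605611-34605860, plus strand: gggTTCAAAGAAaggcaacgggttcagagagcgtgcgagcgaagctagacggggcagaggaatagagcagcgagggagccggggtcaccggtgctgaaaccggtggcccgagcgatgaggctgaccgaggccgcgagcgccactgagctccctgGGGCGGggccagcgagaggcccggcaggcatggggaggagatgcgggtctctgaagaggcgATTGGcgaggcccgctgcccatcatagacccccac
Pnpla3, chr15:84167566-84167815, plus strand: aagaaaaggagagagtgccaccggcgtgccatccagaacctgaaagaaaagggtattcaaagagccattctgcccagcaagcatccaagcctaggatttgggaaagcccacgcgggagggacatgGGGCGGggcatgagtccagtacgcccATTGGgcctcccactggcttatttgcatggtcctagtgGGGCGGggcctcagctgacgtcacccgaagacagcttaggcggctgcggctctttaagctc
Of all 32851 such windows in the RefSeq table, 33.8% held a CCAAT box, 32.7% a GC box and 7.02% a gamma-activated site. Each of the 3 windows shown held 1 CCAAT box, at bases -74 to -70 for Gpam, -35 to -31 for Agpat1 and -99 to -95 for Pnpla3. The windows before the second annotated start of Gpam and of Agpat1 held none, and that of Plin3, which did not pass the test, held 1 at -75 to -71. The Agpat1 window shown held the 1 gamma-activated site found in the 9 windows of these genes, TTCAAAGAA at -247 to -239. A sterol regulatory element (TCACNCCAC), the kind of site Srebf factors bind, stands in 1.05% of all windows and an E-box (CACGTG) in 6.02%, and neither was found in these 3 windows or in those of Lpin1, Pnpla2, Fabp3 and Plin3. Of the 10 genes, 7 matched the promoter table. A match of letters is a description of the window and does not show that a factor binds there.

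The genes with the most similar profiles were sought for each of the 3 called genes, as the smallest root mean square difference over the 12 libraries of log2 CPM minus the WT mean. For Gpam these were Lrig1 (0.10), Slc7a4 (0.11) and Urod (0.12). For Agpat1 they were Slc27a4 (0.11), Rabac1 (0.11) and Dip2b (0.12), and for Pnpla3, at a larger distance, Tspyl4 (0.47), Cck (0.51) and Susd4 (0.51).

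Around the 10 genes, 79 further genes of triglyceride metabolism in 7 lists were measured, of which 4 rose (5.06%, against 4.84% of all genes) and 10 fell (12.7%, against 4.52%). These lists too were chosen with earlier results of these data known, so the shares are descriptions. Their median log2 change was -0.13, against -0.03 over all genes. Enzymes and channels that supply glycerol 3-phosphate gave 0 of 6 higher and 2 lower (33.3%, against 4.52% of all genes). Gpd1l, of the glycerol 3-phosphate dehydrogenase family, fell by 0.30 (SE 0.07, adjusted p = 0.0204), and Aqp7, a glycerol channel, fell by 0.70 (SE 0.19, adjusted p = 0.0369). Aqp9 (log2 change 0.46) and Gk (-0.13) did not pass. Removing WT replicate 1 (adjusted p = 0.0542) or 3 (0.0553) ended the Gpd1l call, and the Aqp7 call without any 1 library except WT replicate 3, KO replicate 3 and KO replicate 4 (up to 0.0960).

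Of 8 other acyltransferase genes 1 rose and 1 fell (12.5% each, against 4.84% and 4.52% of all genes), and 6 did not pass, Agpat5 (-0.17) among them. Agpat4 was the 1 that rose. Lpcat3, which places polyunsaturated fatty acids in membrane phospholipids, fell by 0.42 (SE 0.10, limma adjusted p = 0.0173, and 0.0536 without WT replicate 1). Of 7 phosphatases and cofactors 1 rose (14.3%, against 4.84% of all genes) and 0 fell. Plpp2, a lipid phosphate phosphatase of the plasma membrane, rose by 0.52 (SE 0.12, limma adjusted p = 0.0153). Plpp3 (0.10) did not pass.

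Of 12 droplet coat and droplet formation genes 3 fell (25%, against 4.52% of all genes) and 0 rose. Besides Plin2, Ldah, a droplet-associated hydrolase, fell by 0.55 (SE 0.09, limma adjusted p = 0.00357), and was lower in each KO library than in any WT library. Bscl2, the seipin of droplet budding, fell by 0.32 (SE 0.10, adjusted p = 0.0487), a call that held when WT replicate 4 or KO replicate 5 or 6 was removed, and ended without any 1 of the other libraries (up to 0.126). Hsd17b11 (-0.24, limma adjusted p = 0.0594) did not pass in the fit of all libraries, and passed in 2 of the fits that left out 1 library (down to 0.0424).

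Lipolysis genes gave 1 of 13 higher (7.69%, against 4.84% of all genes) and 0 lower, and the other 12, lipases among them, did not pass. The 1 was Ubxn8, not a lipase but a membrane anchor for protein degradation at the endoplasmic reticulum, at 0.51 (SE 0.15, limma adjusted p = 0.0420). Its call held when WT replicate 1 or 2, or KO replicate 3 or 5, was removed, and ended without any 1 of the others (up to 0.106). Pnpla7 (-0.55), Ces1d (-0.41) and Ces1f (-0.48) did not pass in the fit of all libraries. Pnpla7 passed in 1 of the fits that left out 1 library (limma adjusted p = 0.0492).

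Of 16 genes of fatty acid uptake, binding and activation 1 rose (6.25%, against 4.84% of all genes) and 3 fell (18.8%, against 4.52%). Dbi, the acyl-CoA binding protein, rose by 0.70 (SE 0.10, adjusted p = 0.00188), and was higher in each KO library than in any WT library. The fatty acid transport proteins Slc27a4 and Slc27a1 fell by 0.45 (SE 0.10, adjusted p = 0.0123) and 0.69 (SE 0.15, adjusted p = 0.0154). Vldlr, a lipoprotein receptor that aids triglyceride uptake, fell by 0.51 (SE 0.13, adjusted p = 0.0250), and its call ended without any 1 of WT replicates 1 to 4 (up to 0.0744).

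Of 17 regulators 1 fell (5.88%, against 4.52% of all genes) and 0 rose. Mid1ip1, which aids acetyl-CoA carboxylase, fell by 0.53 (SE 0.14, limma adjusted p = 0.0343), and its call ended without WT replicate 1, 2, 3 or 5 (up to 0.0869). Srebf1, the lipogenic transcription factor, did not pass, with a log2 change of -0.90 (SE 0.27, adjusted p = 0.0583). Its level was 7.28 ± 0.58 log2 CPM in WT and 6.38 ± 0.46 in KO, and 3 of 7 KO values lay below the WT range. It passed without WT replicate 4 (adjusted p = 0.0243) or KO replicate 6 (0.0311), and in the authors' deposited table its adjusted p is 0.0439. Ppara (-0.77) and Thrsp (-0.79), a lipogenic protein induced by thyroid hormone, did not pass in the fit of all libraries.

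**Figure D4:**
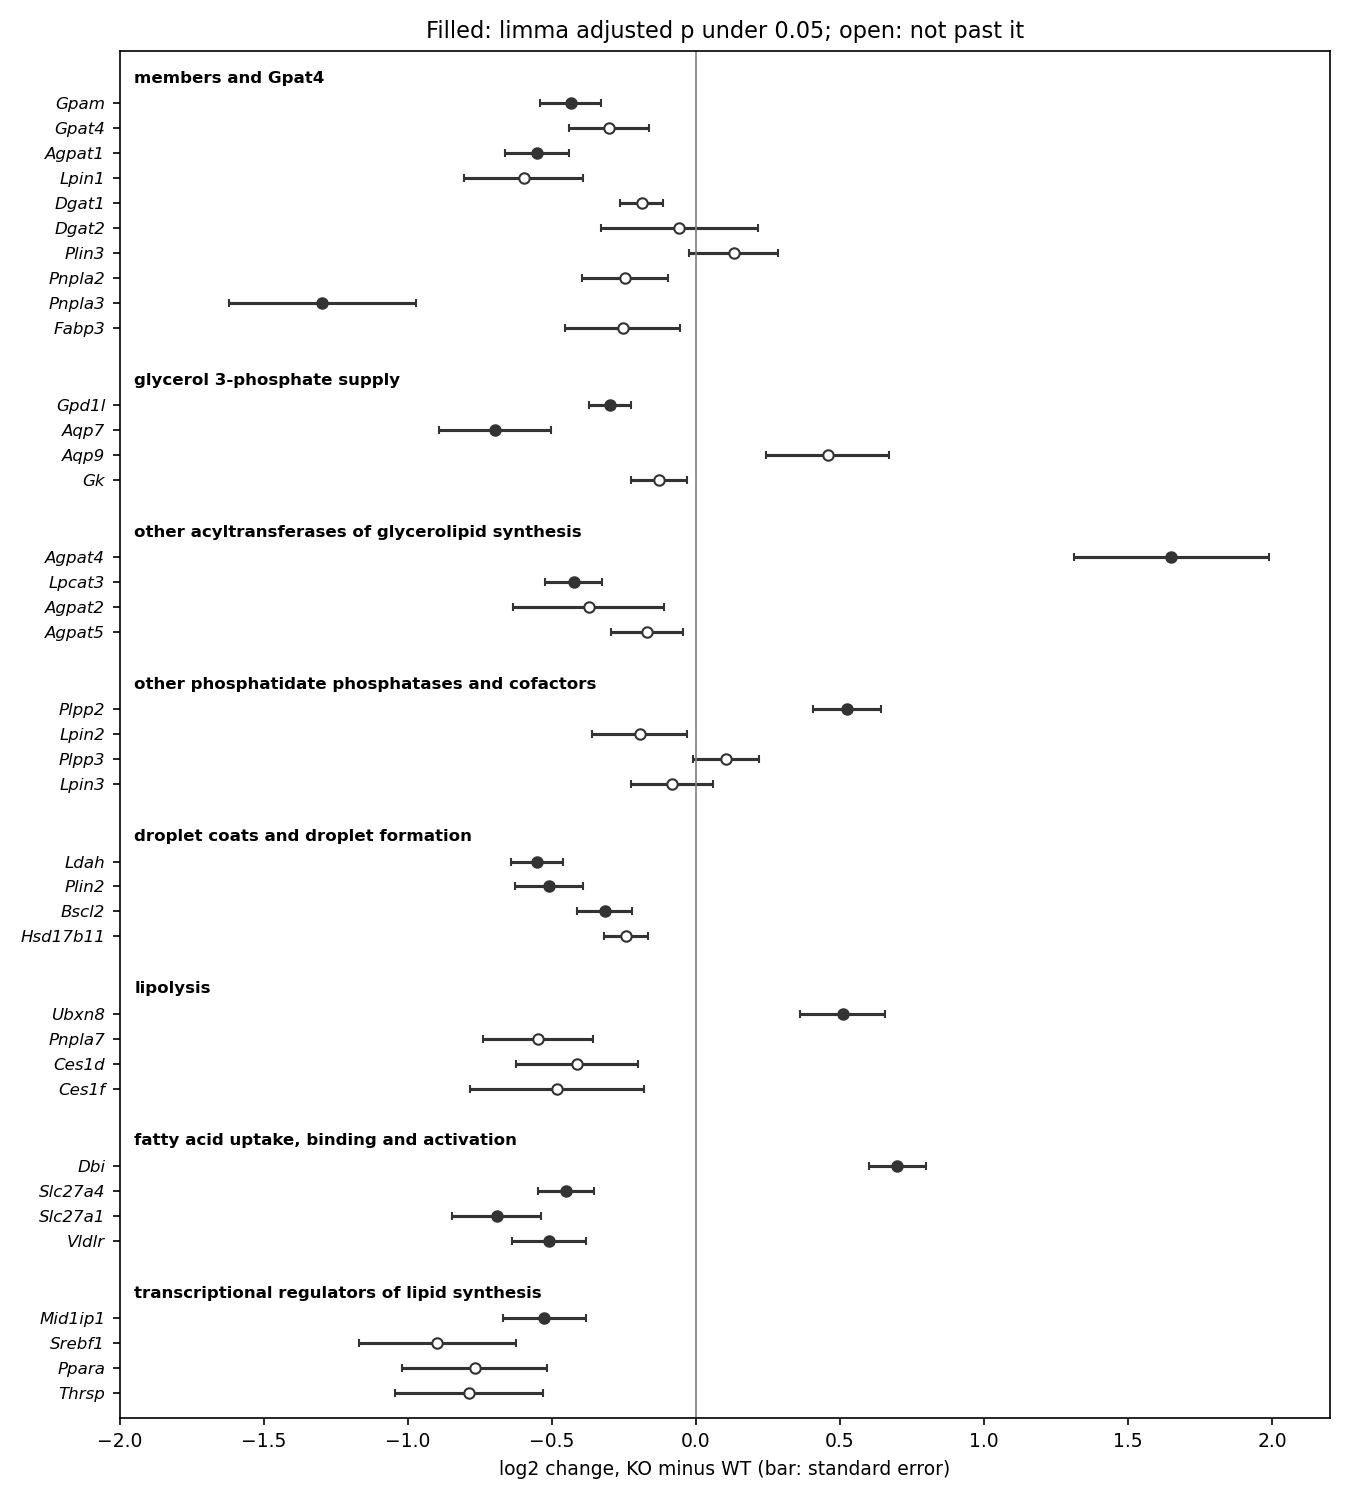
Log2 change of KO against WT (horizontal axis, bars give the SE) for the 9 genes with Gpat4 and for the 4 genes of smallest p in each of 7 lists. Filled points passed at an adjusted p under 0.05; most filled points lie below 0, and Agpat4, at 1.65, lies farthest above.

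Markers of other cells in the gland moved too. The basal and myoepithelial score, the mean log2 CPM of 10 markers relative to WT, was 0.34 higher in KO (exact permutation p = 0.0164, adjusted over 6 lists p = 0.0328). It ran from -0.24 to 0.20 in WT and from -0.03 to 0.58 in KO. Of the 10 markers 6 rose, where 4.84% of all genes did, while Myh11 (-0.18) and Trp63 (-0.06) went the other way without passing. The score of 12 macrophage markers was 0.41 higher (exact permutation p = 0.0101, adjusted p = 0.0303), from -0.17 to 0.24 in WT and 0.02 to 0.62 in KO. Of these 12 markers 4 rose, against 4.84% of all genes. Summed levels were 517 to 695 CPM in WT and 582 to 897 CPM in KO for the basal markers, and 101 to 130 CPM and 112 to 218 CPM for the macrophage markers. The skeletal muscle score was 1.06 higher, without passing (exact permutation p = 0.158), and that of 8 endothelial markers 0.19 lower (-0.19, exact permutation p = 0.231). The basal difference no longer passed when any 1 WT library was left out (exact permutation, adjusted p up to 0.0727), nor did the macrophage one without WT replicate 1, 2 or 3 (up to 0.0636). The muscle difference passed without KO replicate 6 (exact permutation, adjusted p = 0.0357). Of the listed markers that the table holds, the lowest value in any library was -0.43 log2 CPM.

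White adipocytes share Dgat2, Pnpla2, Lpin1 and Gpam with the secretory cell. Their score over 12 markers, which include Plin1, Lipe, Fabp4, Cidec and Thrsp of the lists above, differed by 0.02 between groups (exact permutation p = 0.928), and its markers went both ways. WT replicate 2, without which only Agpat1 was called, had the highest score of the 12 libraries, 0.57. The other WT libraries lay between -0.22 and -0.10, and the highest KO score was 0.43 in KO replicate 4. Whether fat cells raise the 9 genes in WT replicate 2 was not tested. Of the 12 markers 1 rose, where 4.84% of all genes did. It was Lep, the hormone leptin, at 0.95 (SE 0.17, limma adjusted p = 0.00522), while Thrsp was at -0.79 and Pck1 at -0.31 without passing. Summed levels were 1222 to 2030 CPM in WT and 862 to 1539 CPM in KO. Thrsp, also listed above as a lipogenic gene, weighs most in these sums, at 9.84 log2 CPM in WT and 9.05 in KO. The next marker, Car3, was at 7.66 and 7.93. The sums therefore say little about the number of fat cells. With the adipocyte score as a covariate the log2 changes of Gpam, Agpat1 and Pnpla3 were -0.44, -0.55 and -1.31, and all 3 stayed called. A score that hardly differs between the groups can move these changes little, so the fit does not test a part of fat cells. The luminal secretory score was 0.24 lower in KO (-0.24, exact permutation p = 0.00126, the lowest value that 5 against 7 libraries allow) with Btn1a1 on its list. Without Btn1a1 the score of the other 11 genes was 0.23 higher in KO (exact permutation p = 0.00126, adjusted p = 0.00758). It ran from -0.10 to 0.08 in WT and from 0.16 to 0.35 in KO, so all 7 KO values lay above all WT values. The 11 genes went both ways. Krt19, a keratin, rose by 1.88 (SE 0.31, limma adjusted p = 0.00485), by far the largest change of the 11, and weighs most in this score. The score without Krt19 was not computed, so it does not show a rise of luminal markers in general. Krt8 and Epcam rose by 0.42 and 0.30 (limma adjusted p of 0.0389 and 0.0456). The secretory genes Mfge8 (-0.30), Elf5 (-0.25) and Xdh (-0.21) did not pass. Csn2 and Wap were at the same value in both groups, which after quantile normalization does not show equal transcript levels. These luminal genes were named after their values were seen.

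With other marker scores as covariates the number of called genes among the 9 fell. It was 1 (Agpat1, adjusted p = 0.0486) with the muscle score, 0 with the basal score and 0 with the macrophage score, and the last 2 fits called 13 and 1 of all genes. For Gpam, Agpat1 and Pnpla3 the log2 changes were -0.41, -0.48 and -1.17 with the muscle score and -0.36, -0.47 and -0.97 with the basal score. They were -0.39, -0.36 and -1.08 with the macrophage score, and -0.44, -0.55 and -1.30 without a covariate. At an unadjusted limma p under 0.05, 3 of the 9 genes were lower with the basal score and 2 with the macrophage score. In the same fits 1797 and 1161 of all 11834 genes passed that threshold, both directions together. Whether a shift in cell types has a part in the falls of Gpam, Agpat1 and Pnpla3 was not tested beyond these fits.

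**Figure D5:**
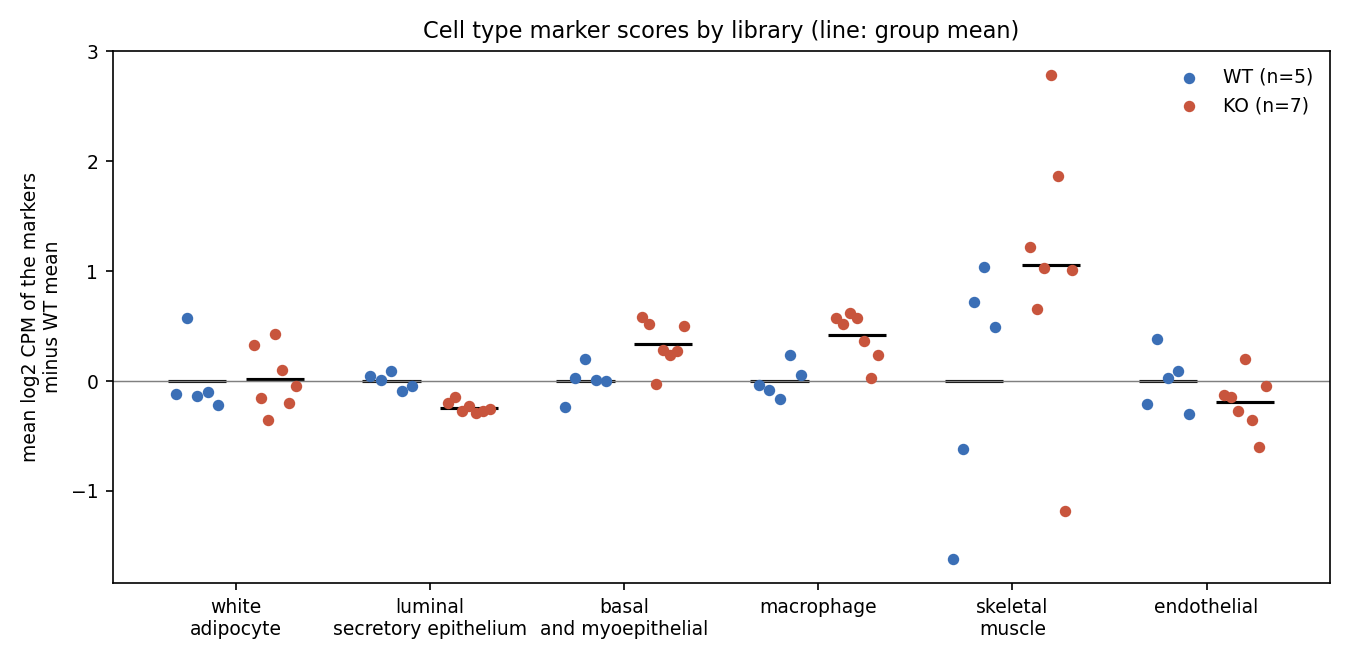
Mean log2 CPM of 6 marker lists relative to WT, by library. Points are libraries and lines give group means. Macrophage and basal scores lie higher in most KO libraries, adipocyte scores overlap, and the luminal score, with Btn1a1 on its list, lies below 0 in all 7 KO libraries.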

How the data were processed

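PolyA RNA libraries of 12 mouse mammary glands, 1 per mouse, were sequenced paired-end. The submitters' processing notes name, with no role for each, limma 3.34.5, STAR 2.5.2b and RSEM 1.3.0 as well as Trimmomatic 0.33 with bcl2fastq 2.17. These notes list mm10 and hg19 without roles, while annotation and gene filter are not given in the sources used here. Deposited by the authors were log2 CPM values, which from the values were quantile-normalized: 67.1% of ranks differed by less than 0.01 log2 between libraries. Their table also holds the authors' adjusted p-value and log2 fold change. Quantile normalization limits how far the most abundant genes can differ.

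The members and gene lists were chosen with earlier results of these data known. All 11834 genes were fitted by genotype with limma 3.58.1 (R 4.3.3; eBayes with trend and robust options), and p-values were adjusted by Benjamini-Hochberg. All members were named, with up to 4 genes of smallest p per pathway list. Marker scores were compared by exact two-sided permutation. Labels name each library as a separate mouse. Exon lengths and gene positions come from GENCODE M21 (mm10), as the union of exons. The depth estimate uses values from 0.5 to 8 CPM shared by at least 8 genes. The procedure was tested on simulated data. Alternatives were a replicate block, lactation day, day 10 alone, other moderation, a filter at 1 log2 CPM, cyclic loess, median centring, library weights, leaving out each library and the authors' statistics; marker scores as covariates, and a luminal list without Btn1a1, were chosen after seeing the data. The table came filtered, so no unfiltered fit exists, and pseudocounts do not apply to log2 values. Python 3.11.15 and matplotlib 3.10.9 made tables and figures.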

Additional observations from a re-analysis of the deposited data

Results flagged for a closer look

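Pnpla3 in KO replicate 2, at 2.13 log2 CPM, lay far from the other 6 KO libraries, the nearest of which was at 3.35. The gap took up 0.785 of the KO range, above Dixon's critical value for 7 samples at the 95% level. It was the 1 such value in 20 groups tested over the 10 genes, where chance gives about 1. Without this library Pnpla3 kept its call, with a log2 change of -1.11 (limma adjusted p = 0.0318).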

How the results depend on the processing

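The number of called genes was 268 with day 10 libraries alone, 312 with the muscle score, 13 with the basal score and 1 with the macrophage score as covariate. The number of the 9 genes called lower in these fits was 0, 1, 0 and 0. Leaving out 1 library gave 559 to 1327 called genes, with over 1.5 times fewer without WT replicates 1 (559), 2 (644), 3 (725), 5 (696) or KO replicate 1 (724), and 1 (without WT replicate 2) to 4 (without KO replicate 5) of the 9 called lower. Of the 13 settings other than leaving out a library, 9 kept both counts within 1.5 times. The sign turned for Dgat2 with day 10 libraries alone (0.10) and, with the macrophage score, for Dgat2 (0.35), Fabp3 (0.22), Agpat2 (0.18), Agpat5 (0.14), Lpin3 (0.013) and Plpp3 (-0.0083). It turned with the muscle score for Plpp3 (-0.023) and with the basal score for Plpp3 (-0.16) and Aqp9 (-0.0058). Leaving out 1 library moved Dgat2 from -0.18 to 0.0897 and Lpin3 from -0.16 to 0.0239. Gpam, Agpat1 and Pnpla3 kept their sign in all 25 settings. The causes were not tested.

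Of marker scores, the luminal (-0.20), basal (0.50) and macrophage (0.26) differences did not pass with day 10 libraries alone (exact permutation, adjusted p of 0.0536, 0.0536 and 0.286). The luminal and basal unadjusted p were the smallest that 3 against 5 libraries allow, 0.0179. Over all 12 libraries the luminal difference turned to 0.23 without Btn1a1 (exact permutation, adjusted p = 0.00758), in a score where Krt19 (log2 change 1.88) weighs most. Leaving out 1 library gave ranges of -0.0537 to 0.16 for adipocyte, 0.28 to 0.40 for basal, 0.37 to 0.48 for macrophage and 0.65 to 1.43 for muscle scores.

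Equal replicate numbers did not pair the libraries: the 5 correlations of deviations ran from -0.17 to 0.21, and not every library correlated best with its own number. The replicate block called 1083 genes and 2 of the 9, Agpat1 (adjusted p = 0.0195) and Lpin1 (0.0418), and not Gpam (0.0705) or Pnpla3 (0.0641). The depth is known only roughly, so no counting interval was given.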
